A study of Mus musculus with 8 samples.

Results

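Interferon-stimulated genes are genes whose transcripts increase when a cell responds to interferon. Of 23469 gene symbols in the deposited tables, 39 were followed here, and all 39 were present in both tables. They comprise 35 genes listed as known members of the response, and Ddx60, Parp12, Tgtp2 and Gm14446, which were added because they were higher in the libraries labelled Irf8 cKO. Values that compare the genotypes for those 4 genes are therefore given as a description with no test, and no p-value was formed over the list.

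RNA was sequenced from germinal centre (GC) B cells of C57BL/6 mice, sorted as B220+ FAShigh GL7high cells on day 13 of the response to NP-KLH, a hapten coupled to a carrier protein. The mice labelled Irf8 cKO carried a heterozygous Cre knock-in together with Irf8flox/flox, and the Ctrl mice carried the same Cre with intact Irf8+/+. Each of 2 experiments gave 1 library per genotype, so n = 2 for each group, and 4 samples of cultured B cells in the series were not analysed here. The Cre that both groups share acts in the B lineage from early development and not only in GC B cells. The age of the mice, the number of animals behind a library and the extent of deletion are not given in the sources used. Whether replicates stem from separate animals is not labelled, so p-values measure only the spread between these samples, which may be technical.

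Type I interferons bind the receptor IFNAR and interferon gamma binds IFNGR, and JAK kinases at these receptors phosphorylate STAT proteins. The complex ISGF3, which holds STAT2 and IRF9, binds interferon-stimulated response elements (ISRE), while STAT dimers bind gamma-activated sites (GAS). IRF8 recognises the same core letters as other interferon regulatory factors, and with the ETS factors PU.1 and SPIB it binds composite ETS-IRF elements in B cells. The products of the induced genes sense viral RNA, block translation, degrade RNA, attack vacuoles that hold pathogens and add or remove the ubiquitin-like modifier ISG15.

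The 250 bases upstream of the transcription start are shown for 6 members that recur in the results, from RefSeq promoter windows on GRCm38.p6 (mm10). Capitals mark matches to the ISRE core, which is GAAA, any 2 bases and GAAA, on either strand, and each sequence is written 5′ to 3′ on the strand of its gene. Ddx60 (chr8:61927837-61928086, plus strand), Parp12 (chr6:39118350-39118599, minus strand), Tgtp2 (chr11:49064213-49064462, minus strand) and Gm14446 (chr19:34601969-34602218, minus strand) are the 4 members added for being higher. Ifit1 (chr19:34640639-34640888, plus strand) and Isg15 (chr4:156200819-156201068, minus strand) are textbook members with repeated cores.
Ddx60: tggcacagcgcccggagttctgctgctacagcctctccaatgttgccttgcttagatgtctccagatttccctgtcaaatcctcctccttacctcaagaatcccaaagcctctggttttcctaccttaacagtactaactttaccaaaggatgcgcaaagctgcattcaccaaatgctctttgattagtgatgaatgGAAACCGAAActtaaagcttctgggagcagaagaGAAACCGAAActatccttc
Parp12: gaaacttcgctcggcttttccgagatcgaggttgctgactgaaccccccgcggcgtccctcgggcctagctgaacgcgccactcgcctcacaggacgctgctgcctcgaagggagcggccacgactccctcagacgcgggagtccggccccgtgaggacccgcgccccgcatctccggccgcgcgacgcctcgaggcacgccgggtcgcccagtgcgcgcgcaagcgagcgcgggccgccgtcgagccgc
Tgtp2: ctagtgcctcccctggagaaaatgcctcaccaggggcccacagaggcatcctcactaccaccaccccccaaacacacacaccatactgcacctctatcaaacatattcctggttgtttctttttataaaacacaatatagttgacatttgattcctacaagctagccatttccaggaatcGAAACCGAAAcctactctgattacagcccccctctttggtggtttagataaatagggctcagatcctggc
Gm14446: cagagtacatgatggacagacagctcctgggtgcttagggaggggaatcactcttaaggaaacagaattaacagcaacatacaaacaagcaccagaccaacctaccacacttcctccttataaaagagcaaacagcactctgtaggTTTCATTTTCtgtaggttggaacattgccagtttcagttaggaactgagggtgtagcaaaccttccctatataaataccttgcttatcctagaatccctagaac
Ifit1: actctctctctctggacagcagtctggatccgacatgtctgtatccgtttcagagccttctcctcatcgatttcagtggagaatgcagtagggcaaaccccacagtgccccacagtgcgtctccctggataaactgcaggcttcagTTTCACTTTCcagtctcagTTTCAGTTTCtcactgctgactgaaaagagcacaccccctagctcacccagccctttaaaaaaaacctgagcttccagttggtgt
Isg15: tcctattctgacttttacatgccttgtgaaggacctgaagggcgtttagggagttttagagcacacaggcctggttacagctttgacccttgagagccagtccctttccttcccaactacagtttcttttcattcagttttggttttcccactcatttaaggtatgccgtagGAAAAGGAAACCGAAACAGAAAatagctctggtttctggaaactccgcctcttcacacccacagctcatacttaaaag

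The promoter windows run from 250 bases before to 50 bases after the start, and 30 of the 39 members matched one, of which 23 began at the start given in the deposited tables. An ISRE core occurred in 20 of the 30 windows (66.7%), against 3.44% of all 32851 windows, and in 17 of the 26 matched members that were not added for being higher. A GAS, spelled TTCNNNGAA, occurred in 9 windows (30.0%, against 8.30% of all), and an ETS-IRF composite, spelled GGAA, any 2 bases and GAAA, in 7 (23.3%, against 2.72% of all). All searches covered both strands, and motif matches can overlap each other. Cores began 53 and 19 bases before the start in Ddx60, 104 and 85 in Ifit1, and 78, 72 and 66 in Isg15, where they overlap. The Gm14446 core began 104 bases before the start. In Tgtp2 a GAS at 81, a composite at 76 and an ISRE core at 70 bases before the start overlap in 1 stretch, and Igtp and Irgm2 have the same 3 motifs in the same order. Parp12 held none of the 3 motifs, and Samhd1 held a GAS but no ISRE core. These matches describe letters and are not binding sites shown in these cells.

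**Figure D1:**
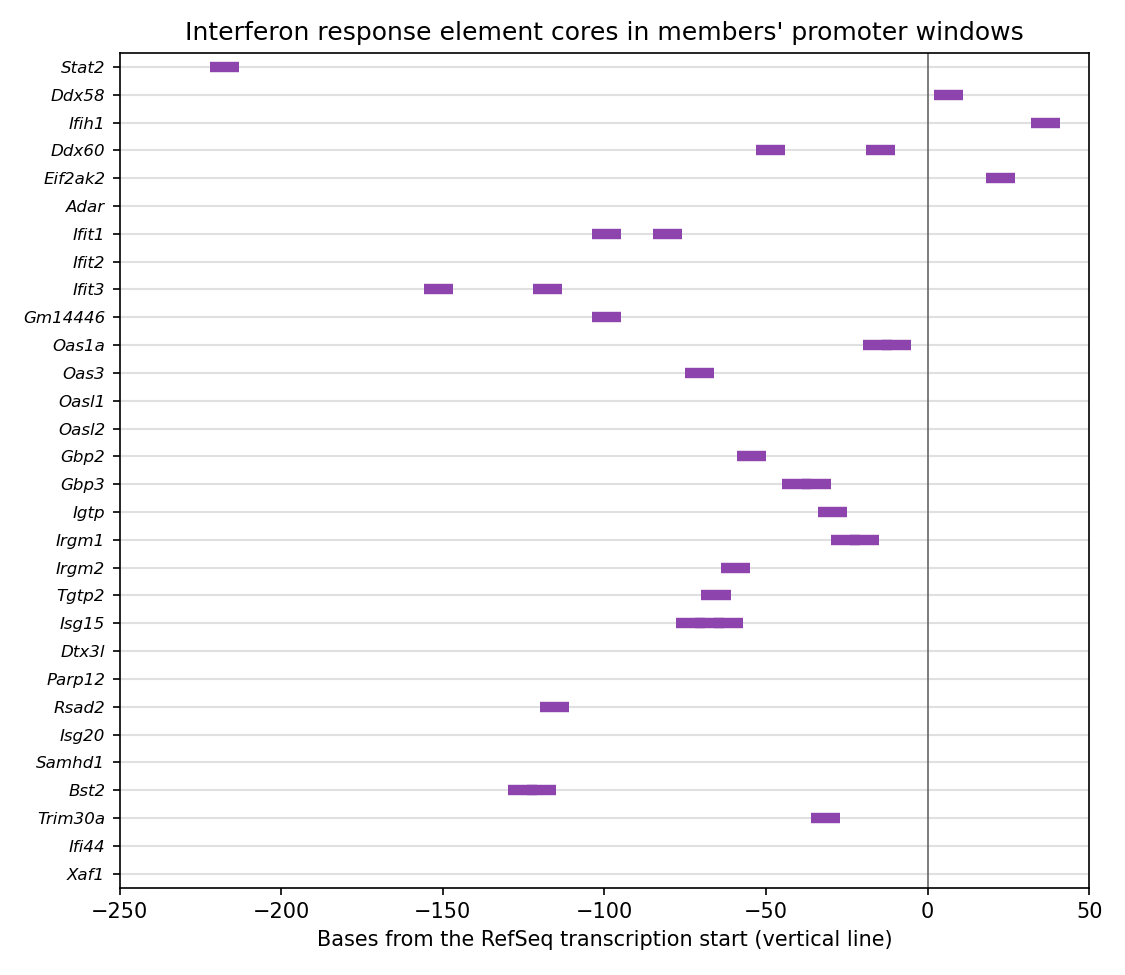
Positions of ISRE cores (bars) in the promoter windows of 30 members; the horizontal axis is distance in bases from the RefSeq transcription start. Of the 30 windows, 20 hold at least 1 core, most of them upstream of the start, and Parp12 holds none.

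Values are RPKM, reads normalised to transcript length in kilobases and to library size, so levels of different genes can be compared per length. Estimated totals were 76.2 M and 63.9 M reads (M, mega) in the libraries labelled Irf8 cKO 1 and 2, and 73.3 M and 63.4 M reads in Ctrl 1 and 2. At 1 RPKM or more there were 6171 and 4845 genes in the libraries labelled Irf8 cKO, against 6566 and 6433 in Ctrl, so the library labelled Irf8 cKO 2 stands apart. Rn45s, a ribosomal RNA precursor, measured 8589 and 16716 RPKM in the libraries labelled Irf8 cKO 1 and 2, against 9085 and 5887 RPKM in Ctrl. Its part in the values of other genes was not tested. All genes tested lay at a median log2 ratio of -0.35 in the values as deposited, -0.18 in experiment 1 and -0.51 in experiment 2. Ratios below are therefore from RPKM divided by a median-of-ratios factor per library (1.07 and 0.685 for Irf8 cKO by label, 1.23 and 1.14 for Ctrl), called scaled RPKM, which leaves a median of -0.04. The authors' deposited log2 ratios carry a constant of nearly the same size, 0.205 in experiment 1 and 0.721 in experiment 2. Irf8 itself measured 20.6 and 11.6 RPKM in the libraries labelled Irf8 cKO, against 14.5 and 14.9 RPKM in Ctrl (scaled log2 ratio 0.51 ± 0.17 SE, limma adjusted p = 0.477). The target transcript was thus not lower in scaled values, with 0.67 in experiment 1 and 0.36 in experiment 2, and as deposited its log2 ratio was 0.08. Each table holds 1 value over all exons, which does not check a deletion of some of them, so directions below go by the labels.

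Most members were scarce in sorted GC B cells of either genotype, as were most genes. Of the 39, 11 and 9 reached 1 RPKM in the libraries labelled Irf8 cKO 1 and 2, against 10 and 10 in Ctrl 1 and 2. Over all 23469 genes, 26.3% and 20.6% reached it in the libraries labelled Irf8 cKO, against 28.0% and 27.4% in Ctrl. The median member stood at 0.341 and 0.305 RPKM in the libraries labelled Irf8 cKO, against 0.282 and 0.199 RPKM in Ctrl. The median over all genes was lower, at 0.044 and 0.025 RPKM in the libraries labelled Irf8 cKO and 0.043 and 0.046 RPKM in Ctrl. Low levels were thus not particular to the members. Samhd1 led at 20.8 and 11.2 RPKM in the libraries labelled Irf8 cKO and 34.9 and 24.2 RPKM in Ctrl, well above Trim30a, Parp14 and Stat2, which followed in the order of Ctrl levels. These were followed by Gm14446 and Dtx3l, and from Trim30a to Dtx3l (mean 2.81 to 2.28 RPKM in Ctrl) each gene overlapped its neighbour in the order over the Ctrl libraries. Mx2 was lowest in that order, listed at 0 in both Ctrl libraries. Summed over all 39 members, scaled RPKM came to 47.0 and 49.5 in the libraries labelled Irf8 cKO, against 49.2 and 43.2 in Ctrl, and the groups overlapped. Without Samhd1, and with the 4 genes added for being higher still in the sum, it came to 27.5 and 33.2 in the libraries labelled Irf8 cKO, against 20.7 and 22.0 in Ctrl. As deposited the sum without Samhd1 was 29.4 and 22.7 RPKM in the libraries labelled Irf8 cKO, against 25.4 and 25.2 RPKM in Ctrl. The groups then overlapped, so their separation depends on the scaling.

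**Figure D2:**
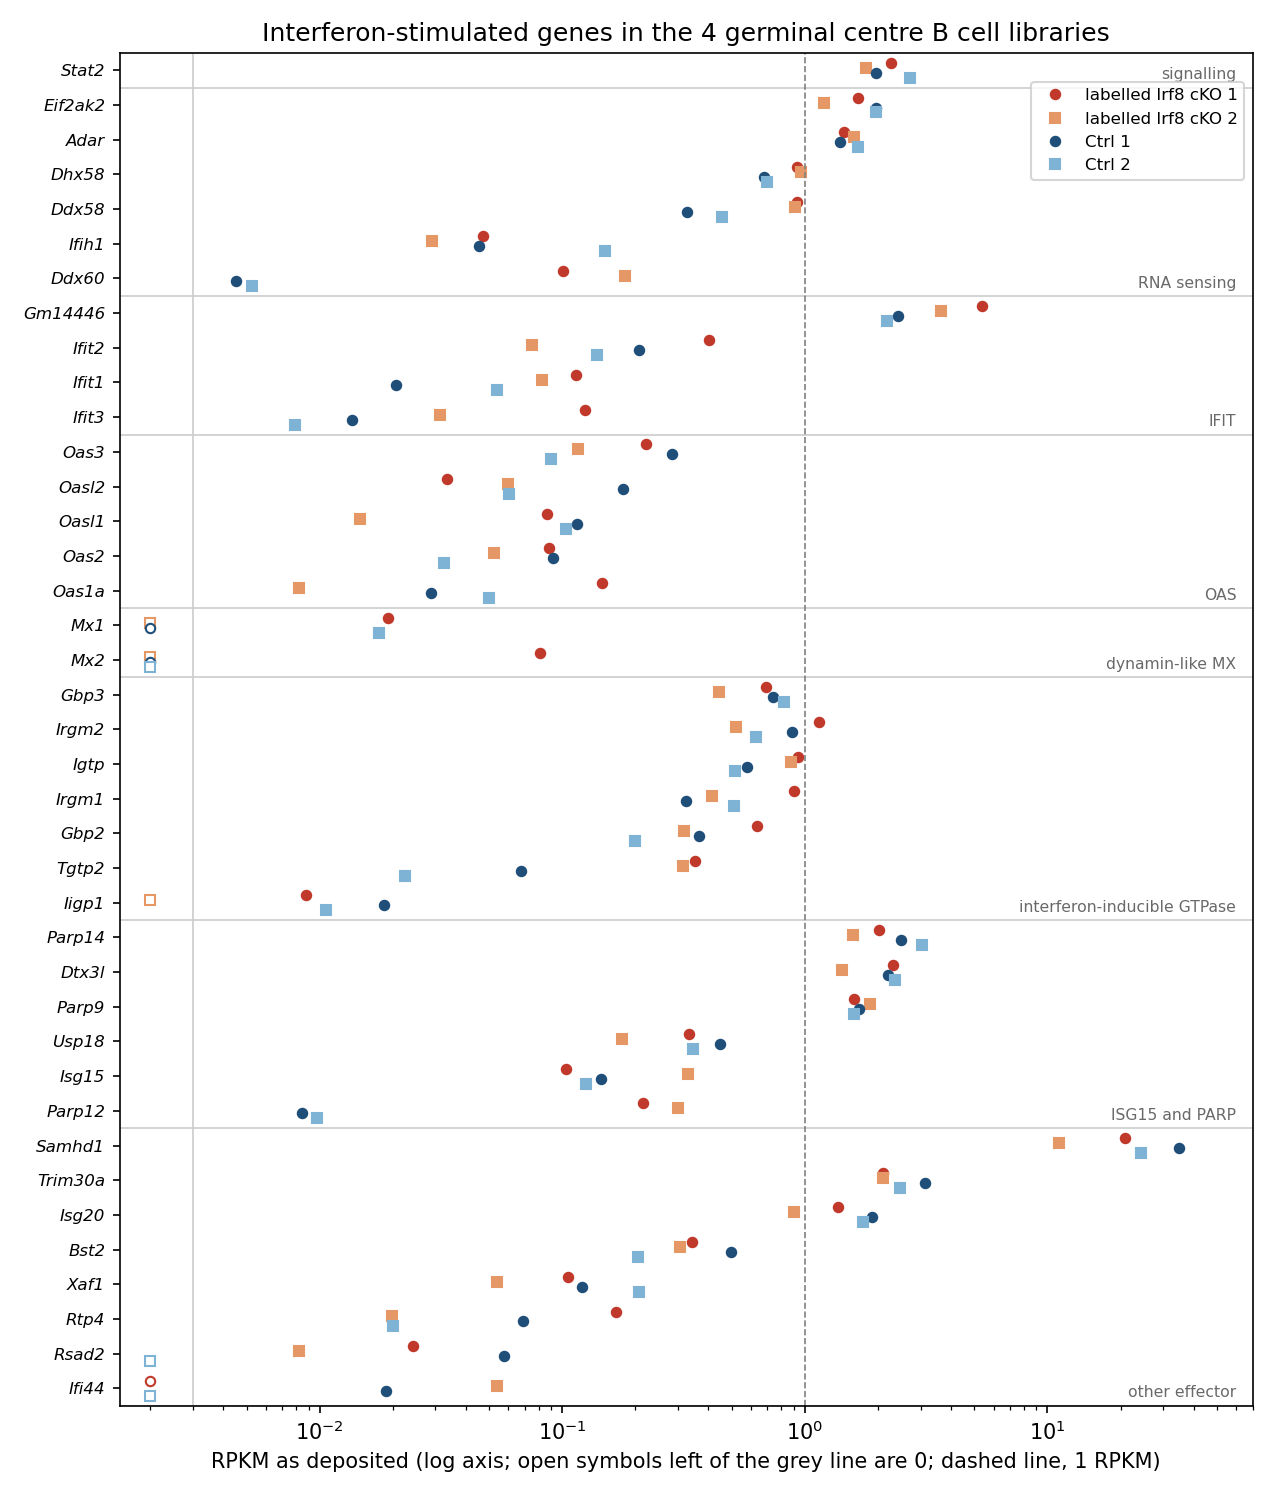
RPKM as deposited of the 39 members in the 4 libraries, grouped by role; the axis is logarithmic, open symbols left of the grey line are values of 0 and the dashed line is 1 RPKM. Ddx60 and Parp12 lie near 0.01 RPKM or lower in both Ctrl libraries and at 0.1005 to 0.299 RPKM in the libraries labelled Irf8 cKO, while Samhd1 lies above 10 RPKM in every library.

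Scarcity limits what can be tested. The test across genes (limma, Benjamini-Hochberg adjustment, threshold 0.05) took genes at 1 RPKM or more in at least 2 libraries, 6446 in all, and 10 of the 39 members passed that filter. Of the other 29, 9 had under 20 estimated reads in every library and 21 of the 39 had under 100 in every library. With 2 libraries a group and the experiment as a block there was 1 residual degree of freedom. Replicates of 1 genotype differed by a median of 1.41-fold among members in the libraries labelled Irf8 cKO and 1.35-fold in Ctrl, against 1.36-fold and 1.35-fold over all genes. The widest gaps between replicates were 11.3-fold for Oas1a in the libraries labelled Irf8 cKO and 3.53-fold for Ifih1 in Ctrl. In bulk libraries fewer cells expressing a gene and less RNA per cell cannot be told apart.

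No tested member passed in either direction, and neither did any of the 6446 genes (0% called), of which 279 were higher and 380 lower at an unadjusted p under 0.05. In the values as deposited 0 of the 10 tested members passed, where 0.0931% of all genes were called higher, 1.09% lower and 1.18% in either direction. The tested members had a median scaled log2 ratio of 0.07, and 0.05 without Gm14446, the added gene among them, against -0.04 for all genes. As deposited the medians were -0.25 for members and -0.35 for all genes. Without the library labelled Irf8 cKO 2, and with no block, the members' median was -0.0075 and 0 members passed. Of the 10, 6 had a ratio above the median of all genes in both experiments, and 5 of the 9 not added, where 28.8% of all genes did. In scaled values 18 of the 39 members were higher in both experiments in the libraries labelled Irf8 cKO (23.6% of 15557 genes above 0) and 6 were lower in both (24.9%). The 4 added genes are among the 18 by choice, and without them 14 of 35 were higher in both. The groups did not overlap in scaled RPKM for 15 members that were higher (14.5% of all genes), 11 of them not added, and for 4 that were lower (15.3%). As deposited 10 members were higher in both experiments (7.68%) and 11 lower (48.2%), with no overlap for 9 higher (4.99%) and 11 lower (31.9%). The list was drawn up with these results known, so the counts describe it and no more is read from them.

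**Figure D3:**
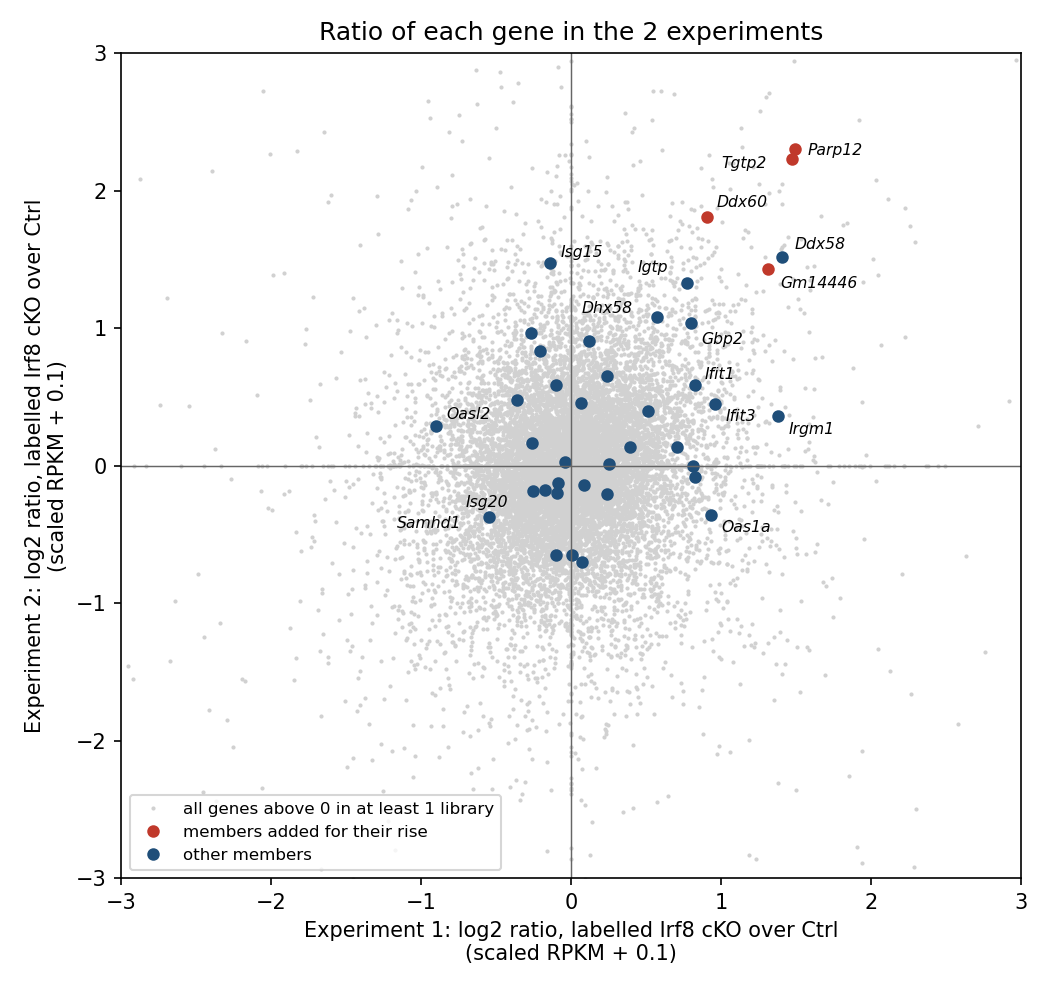
Log2 ratio of the libraries labelled Irf8 cKO over Ctrl in experiment 1 (horizontal) and experiment 2 (vertical), from scaled RPKM with 0.1 added, for all genes above 0 in at least 1 library (grey; genes beyond the axes are not drawn), the 4 members added for being higher (red) and the other members (blue). Ddx58 lies beside the red points at 1.40 and 1.51, while most other members lie within the grey cloud.

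The 6 cytosolic RNA sensors and RNA-binding effectors were mixed in level, and 4 of them were higher in both experiments in scaled values (23.6% of all genes were), Ddx60 among them by choice. As deposited 3 were higher in both (7.68% of all genes were) and 1 lower (48.2%). Ddx58 encodes RIG-I, the sensor of viral RNA with triphosphate ends (chromosome 4, 40203777 to 40239825, minus strand, in mm10 coordinates as deposited, as for the genes below). It measured 0.931 and 0.908 RPKM in the libraries labelled Irf8 cKO, against 0.327 and 0.456 RPKM in Ctrl. The groups did not overlap, and the libraries labelled Irf8 cKO differed less from each other than from Ctrl. The deposited ratio was 2.85-fold in experiment 1 and 1.99-fold in experiment 2. From an estimated 137 and 46 read pairs the scaled ratio was 3.27-fold in experiment 1 (exact 95% interval 2.32 to 4.67), and from 112 and 56 pairs it was 3.32-fold in experiment 2 (2.39 to 4.66). These intervals cover counting error only, and amplified reads are not independent molecules. Ddx58 lay below the filter. With no filter and a pseudocount of 0.1, the limma log2 ratio was 1.46 ± 0.41 (SE, adjusted p = 0.334 over 15557 genes), and with a pseudocount of 1 it was 0.65 ± 0.17 (adjusted p = 0.672). The fit with no filter and a pseudocount of 0.1 called 0 of the 35 members that were not added, where it called 0.0321% of genes higher, 0.0707% lower and 0.103% in either direction. The authors' deposited table gives Ddx58 a log2 ratio of 1.71 in both experiments, with unadjusted p of 0.00104 and 0.00301. By the authors' p under 0.05 in both experiments, 1 of the 35 members that were not added, Ddx58, was higher (2.86%, against 0.315% of all genes), and 0 were lower (0.276% of all genes).

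Ddx60 encodes a helicase related to the RIG-I group (chromosome 8, 61928089 to 62037695, plus strand). It measured 0.1005 and 0.182 RPKM in the libraries labelled Irf8 cKO, against 0.0045 and 0.0053 RPKM in Ctrl. Both Ctrl values stand for about 1 read pair each, against an estimated 25 and 38 pairs in the libraries labelled Irf8 cKO. After scaling the ratio was 25.4-fold in experiment 1 and 57.7-fold in experiment 2. These pair counts rest on the length of the longest annotated protein-coding transcript, 6535 bases, since no length was matched to the deposited entry. With a single pair in each Ctrl library, the size of the ratio is poorly determined. The gene was picked for this difference, and its level stayed far under 1 RPKM in all 4 libraries.

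Dhx58 encodes LGP2, which modulates RIG-I and MDA5. It measured 0.927 and 0.963 RPKM in the libraries labelled Irf8 cKO, against 0.676 and 0.699 RPKM in Ctrl, with no overlap. After scaling it was higher by 1.57-fold in experiment 1 and 2.30-fold in experiment 2, from 107 to 170 estimated reads a library. Ifih1, which encodes MDA5, the sensor of long duplex RNA, went the other way in experiment 2. It measured 0.0473 and 0.0289 RPKM in the libraries labelled Irf8 cKO, against 0.0455 and 0.150 RPKM in Ctrl, and the groups overlapped at 8.39 to 43.0 estimated reads. Eif2ak2 encodes PKR, the kinase that halts translation on duplex RNA. At 1.66 and 1.20 RPKM in the libraries labelled Irf8 cKO and 1.96 and 1.97 RPKM in Ctrl, its scaled log2 ratio was -0.0054 ± 0.14 (SE, limma adjusted p = 0.993). Adar, which edits adenosine to inosine in duplex RNA and so limits sensing, had 1.45 and 1.59 RPKM in the libraries labelled Irf8 cKO, against 1.39 and 1.65 RPKM in Ctrl. Its scaled log2 ratio was 0.29 ± 0.15 (adjusted p = 0.556), and the groups overlapped.

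The 4 IFIT genes, clustered on chromosome 19, encode proteins that bind foreign RNA ends and block its translation. Gm14446, named Ifit1bl1 in RefSeq (chromosome 19, 34592888 to 34601968, minus strand), was the most abundant of them. It measured 5.36 and 3.65 RPKM in the libraries labelled Irf8 cKO, against 2.41 and 2.18 RPKM in Ctrl, from 304 to 898 estimated reads. The scaled values were 5.02 and 5.32 in the libraries labelled Irf8 cKO, against 1.96 and 1.91 in Ctrl, so each pair of replicates lay close together and the groups far apart. The ratio of scaled values was 2.55-fold in experiment 1 and 2.78-fold in experiment 2, and the log2 ratio on the scale of the test was 1.07 (1.02 and 1.12 by experiment, and 0.72 as deposited). Gm14446 was chosen for this difference, so no p is given for it. It was part of the fit over all genes. Its ratio there was the highest of the 10 tested members, but because of that choice neither the rank nor the gap between the groups supports anything.

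Ifit1, which binds RNA lacking a methylated cap, measured 0.114 and 0.0827 RPKM in the libraries labelled Irf8 cKO, against 0.0206 and 0.0538 RPKM in Ctrl. These are estimated at 12 and 7 read pairs in the libraries labelled Irf8 cKO and 2 and 5 pairs in Ctrl. The scaled ratio was 6.35-fold in experiment 1 (exact 95% interval 1.41 to 58.4) and 2.57-fold in experiment 2 (0.701 to 10.3), so the second is not distinguishable from equality at this depth. Ifit3, a partner that stabilises Ifit1 on RNA in human cells, measured 0.124 and 0.0312 RPKM in the libraries labelled Irf8 cKO, against 0.0136 and 0.0079 RPKM in Ctrl. In experiment 1 the scaled ratio was 10.5-fold, from an estimated 8 pairs and 1 pair (exact 95% interval 1.41 to 465), and experiment 2 had too few reads for a ratio. Ifit2, a family member that binds RNA rich in A and U, gave 0.401 and 0.0750 RPKM in the libraries labelled Irf8 cKO, against 0.207 and 0.140 RPKM in Ctrl, and its groups overlapped. Parts of these genes are shared with copies. Of all 50-base words in the transcript, Ifit3 shared 51.2% with Ifit3b, Ifit1 7.06% and Gm14446 6.51% with Ifit1bl2, and the authors' treatment of shared reads was not stated in the labels or headers.

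The 7 interferon-inducible GTPases act on the membranes of vacuoles that hold bacteria or parasites, and 5 of them were higher in both experiments in scaled values (23.6% of all genes were), Tgtp2 among them by choice. As deposited 3 were higher in both (7.68% of all genes were) and 2 lower (48.2%). Tgtp2 (chromosome 11, 49057196 to 49064212, minus strand) measured 0.353 and 0.315 RPKM in the libraries labelled Irf8 cKO, against 0.0676 and 0.0224 RPKM in Ctrl. The scaled ratio was 5.99-fold in experiment 1 from an estimated 38 and 7 pairs, and 23.5-fold in experiment 2 from 28 and 2 pairs. It shared 89.8% of its 50-base words with Tgtp1, so the assignment of its reads is uncertain, and its entry overlaps that of the olfactory receptor gene Olfr56. Tgtp1 itself had 0.0838 and 0.0777 RPKM in the libraries labelled Irf8 cKO, against 0.0339 and 0.0842 RPKM in Ctrl. The groups overlapped as deposited for this near-identical copy, and after scaling it was higher in both experiments, by 2.84-fold and 1.54-fold, with no overlap.

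Igtp, also called Irgm3 (chromosome 11, 58199556 to 58207592, plus strand), is a regulator that keeps the effector GTPases inactive on the cell's own membranes. It measured 0.937 and 0.878 RPKM in the libraries labelled Irf8 cKO, against 0.578 and 0.514 RPKM in Ctrl, with no overlap. The scaled ratio was 1.86-fold in experiment 1 and 2.85-fold in experiment 2. Irgm1 and Irgm2 belong to the same regulator subgroup. Irgm1 had 0.904 and 0.413 RPKM in the libraries labelled Irf8 cKO, against 0.324 and 0.510 RPKM in Ctrl, and Irgm2 had 1.14 and 0.519 RPKM in the libraries labelled Irf8 cKO, against 0.882 and 0.628 RPKM in Ctrl. Both were lower in experiment 2 as deposited and higher in both experiments after scaling, 3.21-fold and 1.35-fold for Irgm1 and 1.49-fold and 1.38-fold for Irgm2, so their direction there depends on the scaling. Gbp2, a guanylate-binding protein, measured 0.634 and 0.317 RPKM in the libraries labelled Irf8 cKO, against 0.365 and 0.199 RPKM in Ctrl. Its scaled ratio was 1.99-fold and 2.66-fold, and the groups overlapped as deposited but not after scaling. Gbp3 lay at 0.689 and 0.443 RPKM in the libraries labelled Irf8 cKO and 0.737 and 0.824 RPKM in Ctrl, with scaled groups that overlapped, and Iigp1 at 0.0184 RPKM or less in every library.

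**Figure D4:**
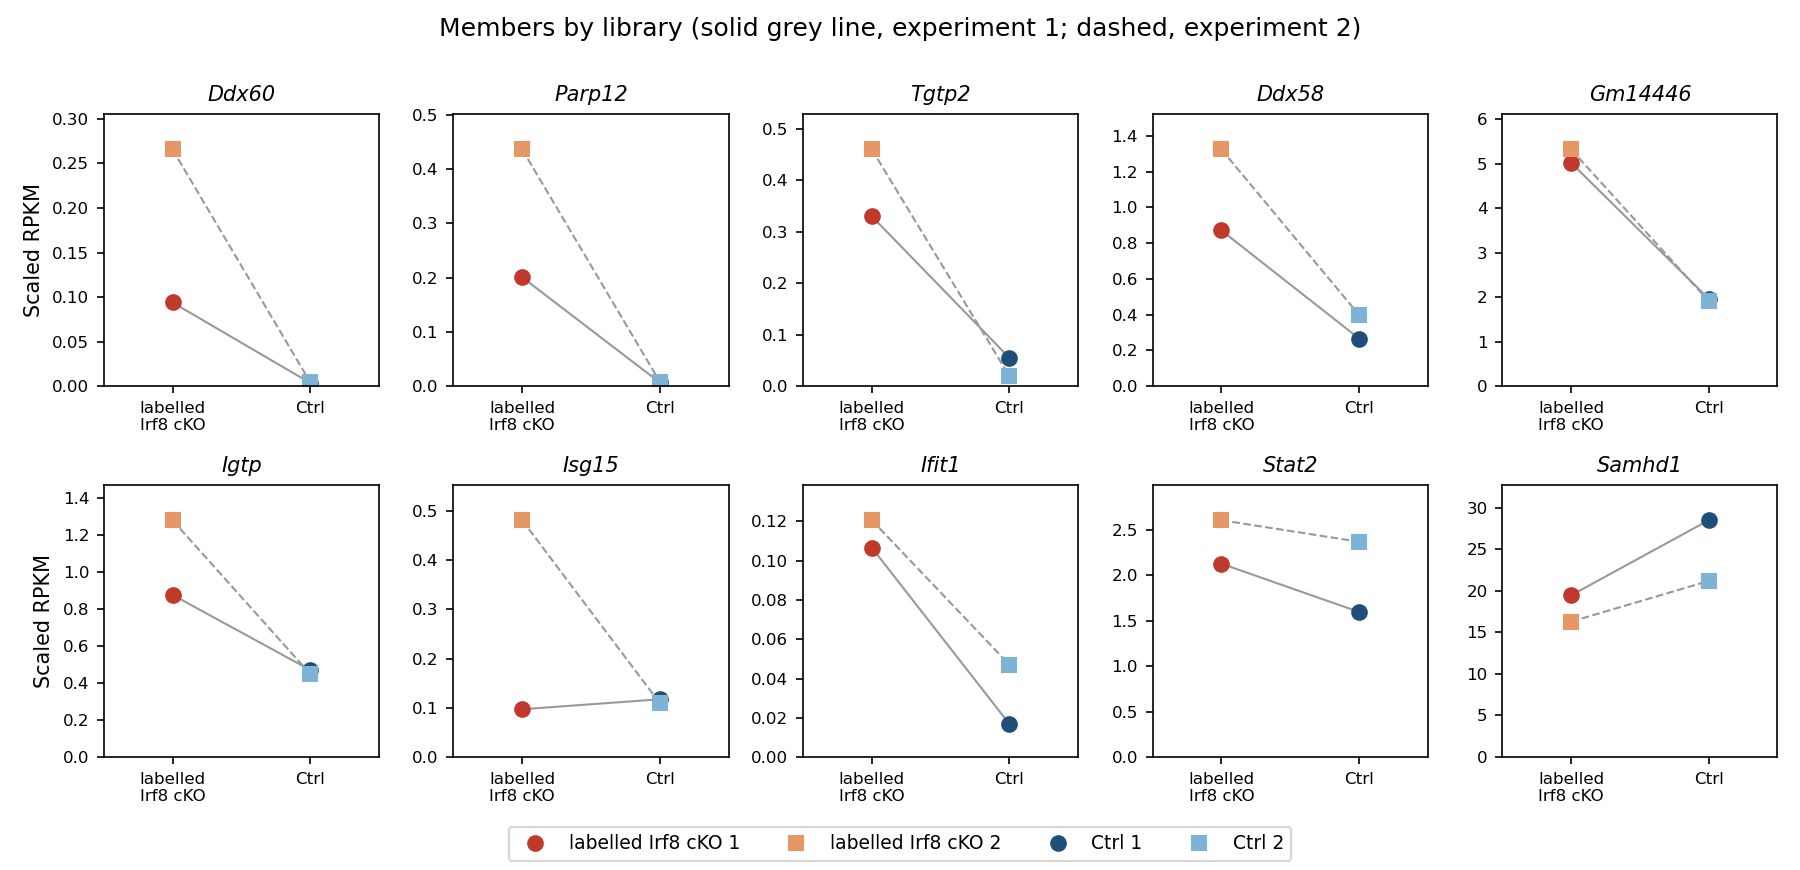
Scaled RPKM of 10 members in the 4 libraries, with the libraries labelled Irf8 cKO on the left and Ctrl on the right of each panel; each line joins the 2 libraries of an experiment and every axis starts at 0. Gm14446 has 5.02 and 5.32 in the libraries labelled Irf8 cKO against 1.96 and 1.91 in Ctrl, Isg15 is higher in experiment 2 and not in experiment 1, and Samhd1 is lower in both experiments.

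Among the 6 genes of ISG15 conjugation and the ADP-ribosyltransferase family, levels diverged. After scaling 3 were higher in both experiments (23.6% of all genes were), Parp12 among them by choice, and 2 were lower in both (24.9%). As deposited 1 was higher in both (7.68% of all genes were), again Parp12, and 2 were lower (48.2%). Parp12, a mono-ADP-ribosyltransferase that restricts some RNA viruses (chromosome 6, 39086412 to 39118349, minus strand), measured 0.215 and 0.299 RPKM in the libraries labelled Irf8 cKO, against 0.0084 and 0.0098 RPKM in Ctrl. As for Ddx60, both Ctrl values stand for about 1 read pair, against an estimated 26 and 31 pairs in the libraries labelled Irf8 cKO. Scaled values differed 29.3-fold in experiment 1 and 51.1-fold in experiment 2. Parp12, Ddx60 and Ddx58 shared no 50-base word with another annotated gene. Parp9 and Dtx3l encode partners in a single complex, and their entries overlap on chromosome 16. Parp9 had 1.60 and 1.86 RPKM in the libraries labelled Irf8 cKO, against 1.67 and 1.60 RPKM in Ctrl (scaled log2 ratio 0.35 ± 0.18 SE, limma adjusted p = 0.550). Dtx3l had 2.30 and 1.43 RPKM in the libraries labelled Irf8 cKO, against 2.20 and 2.36 RPKM in Ctrl (0.09 ± 0.14, adjusted p = 0.840). Parp14, a larger ADP-ribosyltransferase linked to interleukin signalling in B cells, had 2.02 and 1.58 RPKM in the libraries labelled Irf8 cKO, against 2.48 and 3.03 RPKM in Ctrl (-0.11 ± 0.14, adjusted p = 0.803). None of the 3 passed. Parp14 was lower in both experiments, and its groups overlapped after scaling but not as deposited.

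Isg15, the ubiquitin-like modifier itself, was scarce. It measured 0.104 and 0.330 RPKM in the libraries labelled Irf8 cKO, against 0.144 and 0.125 RPKM in Ctrl. The scaled ratio was 0.828-fold in experiment 1 from an estimated 3 and 4 pairs (exact 95% interval 0.121 to 4.89) and 4.40-fold in experiment 2 from 8 and 3 pairs (1.06 to 25.7), so the experiments went opposite ways and the interval of experiment 1 spans equality. Usp18, which removes ISG15 and dampens the type I receptor, had 0.332 and 0.176 RPKM in the libraries labelled Irf8 cKO, against 0.445 and 0.347 RPKM in Ctrl. It was lower in both experiments, and the groups overlapped after scaling but not as deposited.

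Stat2, the transducer among the members (chromosome 10, 128270576 to 128292849, plus strand), measured 2.27 and 1.78 RPKM in the libraries labelled Irf8 cKO, against 1.96 and 2.70 RPKM in Ctrl. Its scaled log2 ratio was 0.18 ± 0.14 (SE, limma adjusted p = 0.670), and the groups overlapped. Samhd1 depletes the nucleotides that viral DNA synthesis needs (chromosome 2, 157097529 to 157135222, minus strand), and it had the lowest ratio of the 10 tested members. It averaged 16.0 ± 6.81 RPKM in the libraries labelled Irf8 cKO and 29.6 ± 7.59 RPKM in Ctrl (mean ± SD, n = 2 each). Its scaled log2 ratio was -0.44 ± 0.17 (adjusted p = 0.480; by experiment -0.53 and -0.36), and the scaled groups did not overlap. Samhd1, the most abundant member, thus lay on the side opposite to Gm14446. Isg20, an RNA exonuclease, had 1.36 and 0.906 RPKM in the libraries labelled Irf8 cKO, against 1.90 and 1.73 RPKM in Ctrl (-0.14 ± 0.14, adjusted p = 0.747). It was lower in both experiments with no overlap, after scaling and as deposited. Trim30a, a ubiquitin ligase of the TRIM family found in mice, had 2.10 and 2.10 RPKM in the libraries labelled Irf8 cKO, against 3.14 and 2.47 RPKM in Ctrl (0.05 ± 0.19, adjusted p = 0.944). Its scaled direction differed between the experiments, -0.26 and 0.36.

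The remaining classical markers of an interferon response were scarce in both genotypes. The 5 genes of the OAS family, whose active enzymes make the oligoadenylates that switch on RNase L, lay between 0.0083 and 0.222 RPKM in the libraries labelled Irf8 cKO and between 0.0288 and 0.282 RPKM in Ctrl. One OAS gene, Oas2, was higher in both experiments after scaling, Oasl1 was lower in both, and 3 were mixed. Oas1a shared 57.6% of its 50-base words with Oas1g and measured 0.146 and 0.0083 RPKM in the libraries labelled Irf8 cKO, against 0.0288 and 0.0501 RPKM in Ctrl, where its replicates differed less. Mx1 was listed at 0.0191 and 0 RPKM in the libraries labelled Irf8 cKO and at 0 and 0.0175 RPKM in Ctrl, and Mx2 at 0.0811 RPKM in the library labelled Irf8 cKO 1 and at 0 elsewhere. Rsad2, which encodes viperin, had 0.0242 and 0.0082 RPKM in the libraries labelled Irf8 cKO, against 0.0575 and 0 RPKM in Ctrl. Ifi44 was listed at 0 and 0.0536 RPKM in the libraries labelled Irf8 cKO, against 0.0187 and 0 RPKM in Ctrl. The groups overlapped for Oas1a, Mx1, Mx2, Rsad2 and Ifi44. Bst2, which tethers budding virus to the cell surface, had 0.342 and 0.305 RPKM in the libraries labelled Irf8 cKO, against 0.497 and 0.206 RPKM in Ctrl. Rtp4 measured 0.166 and 0.0198 RPKM in the libraries labelled Irf8 cKO, against 0.0691 and 0.0200 RPKM in Ctrl, and Xaf1 0.106 and 0.0540 RPKM in the libraries labelled Irf8 cKO, against 0.120 and 0.206 RPKM in Ctrl. For Bst2 and Rtp4 the groups overlapped. Those of Xaf1 overlapped after scaling and not as deposited, where it was lower in both experiments. Samhd1, Isg20, Rsad2, Bst2, Trim30a, Ifi44, Rtp4 and Xaf1 form a role group of 8 other effectors. After scaling 1 of the 8 was higher in both experiments (23.6% of all genes were) and 2 were lower (24.9%). As deposited 0 were higher (7.68%) and 4 were lower (48.2%).

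By chromosome, 6 members lie on chromosome 11 and 6 on chromosome 16, 5 on chromosome 5 and 4 each on chromosomes 3 and 19. Ddx60 and Bst2 are on chromosome 8, as is Irf8. After scaling, Dhx58, Igtp, Irgm1, Irgm2 and Tgtp2 on chromosome 11 were higher in both experiments (23.6% of all genes were), Tgtp2 among them by choice. Xaf1 on the same chromosome was mixed. As deposited Dhx58, Igtp and Tgtp2 were higher in both experiments (7.68% of all genes were), Irgm1 and Irgm2 were mixed and Xaf1 was lower in both (48.2%). On chromosome 16, after scaling, Parp9, Dtx3l and Rtp4 were higher in both, Parp14 was lower in both and Mx1 and Mx2 were mixed. On chromosome 5, Oas2 was higher in both, Oasl1 lower in both and Oas1a, Oas3 and Oasl2 were mixed.

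The genes above the response in the pathway were looked at by role, from lists of known members. Of 21 interferon genes listed, 17 were in the tables and 16 of these were at 0 in every library, and the other, Ifnk, reached at most 0.250 RPKM. Among receptor chains, Ifnar1 had 0.815 and 0.484 RPKM in the libraries labelled Irf8 cKO, against 0.959 and 0.676 RPKM in Ctrl. Ifnar2, the other chain of the type I receptor, had 1.28 and 1.26 RPKM in the libraries labelled Irf8 cKO, against 0.645 and 0.367 RPKM in Ctrl (scaled log2 ratio 0.82 ± 0.18 SE, limma adjusted p = 0.350). Ifngr1, the ligand-binding chain for interferon gamma, had 2.80 and 2.06 RPKM in the libraries labelled Irf8 cKO, against 5.83 and 5.89 RPKM in Ctrl (-0.64 ± 0.14, adjusted p = 0.350). The groups did not overlap for Ifnar2 and Ifngr1, which differed in opposite directions, and none of the 3 receptor genes tested passed.

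Of 10 transducers 9 were tested and none passed. Irf9, the DNA-binding part of ISGF3, had 1.26 and 1.52 RPKM in the libraries labelled Irf8 cKO, against 1.73 and 1.64 RPKM in Ctrl (scaled log2 ratio 0.13 ± 0.18 SE, limma adjusted p = 0.814). Irf7, which amplifies type I interferon and is itself induced by it, lay below the filter with 0.349 and 0.124 RPKM in the libraries labelled Irf8 cKO, against 0.619 and 0.435 RPKM in Ctrl. Of 14 genes of nucleic acid sensing 9 were tested and none passed. Unc93b1, which carries endosomal Toll-like receptors, had 5.91 and 4.72 RPKM in the libraries labelled Irf8 cKO, against 14.0 and 11.8 RPKM in Ctrl (-0.72 ± 0.17, adjusted p = 0.376), and Tlr9, a receptor for CpG DNA, 4.03 and 3.12 RPKM in the libraries labelled Irf8 cKO, against 8.09 and 6.25 RPKM in Ctrl (-0.45 ± 0.17, adjusted p = 0.479). Trim25, the ubiquitin ligase known for activating RIG-I, had 5.99 and 3.99 RPKM in the libraries labelled Irf8 cKO, against 5.70 and 3.82 RPKM in Ctrl (0.44 ± 0.17, adjusted p = 0.479). Of 10 negative regulators 6 were tested and none passed, with a median scaled log2 ratio of -0.01.

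A further list of 83 interferon-stimulated genes that are not members, drawn up from known biology, set the 39 beside the rest of the response. Of these 76 were in the tables and 32 were tested, and none passed in scaled values, with a median log2 ratio of -0.03, against 0.07 for the tested members and -0.04 for all genes. Of the 73 above 0, 22 were higher in both experiments after scaling (30.1%, against 23.6% of all genes) and 12 were lower (16.4%, against 24.9%). In the values as deposited 5 of the 73 were higher in both (6.85%, against 7.68% of all genes) and 30 were lower (41.1%, against 48.2%). As deposited, 2 of the 32 (6.25%, against 1.09% of all genes), Pyhin1 and Zbp1, were called lower in the libraries labelled Irf8 cKO. Pyhin1, a HIN domain protein, had 2.84 and 2.05 RPKM in the libraries labelled Irf8 cKO, against 7.61 and 7.09 RPKM in Ctrl (log2 ratio -1.29 as deposited, limma adjusted p = 0.00699, and -0.92 ± 0.14 SE scaled, adjusted p = 0.247). Zbp1, a sensor of Z-form nucleic acids, had 0.409 and 0.875 RPKM in the libraries labelled Irf8 cKO, against 1.82 and 2.18 RPKM in Ctrl (-0.88, adjusted p = 0.0250, and -0.60 ± 0.17 scaled, adjusted p = 0.463). Their groups did not overlap, and both calls are lost after scaling. Ifitm3, which blocks viral entry, was the next lowest with 1.33 and 0.289 RPKM in the libraries labelled Irf8 cKO, against 2.50 and 1.09 RPKM in Ctrl (-0.45 ± 0.14 scaled, adjusted p = 0.468). The highest of the 32 were Ifi203, Lgals9 and Herc6. Ifi203, another HIN domain gene, had 1.04 and 1.34 RPKM in the libraries labelled Irf8 cKO, against 0.977 and 0.674 RPKM in Ctrl (0.51 ± 0.21 scaled, adjusted p = 0.487). Lgals9, which encodes galectin-9, had 0.851 and 3.83 RPKM in the libraries labelled Irf8 cKO, against 2.21 and 1.67 RPKM in Ctrl (0.39 ± 0.45, adjusted p = 0.776), and Herc6, the ISG15 ligase of mice, 1.94 and 1.18 RPKM in the libraries labelled Irf8 cKO, against 1.38 and 1.38 RPKM in Ctrl (0.36 ± 0.14, adjusted p = 0.480).

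The sort was checked on markers, since interferon and its response can come from other cells. All 14 markers of GC B cells, among them Bcl6 and Fas, passed the filter. After scaling 8 of the 14 were lower in both experiments (24.9% of all genes were) and 3 higher (23.6%), so these markers leaned towards Ctrl. None was called, and neither was any other gene. As deposited Ms4a1, a surface protein of B cells, was called lower (limma adjusted p = 0.0356), where 1.09% of all genes were. In scaled values its log2 ratio was -0.77, and that call was lost. Of 8 plasmacytoid dendritic cell markers, Klk1, Lag3 and Clec10a were at 0 in every library, and the summed level of 2.35 and 1.93 RPKM in the libraries labelled Irf8 cKO, against 1.15 and 1.85 RPKM in Ctrl, was mostly Pacsin1. In scaled RPKM this sum was 2.20 and 2.81 in the libraries labelled Irf8 cKO, against 0.941 and 1.62 in Ctrl. The sum was thus higher in both experiments with no overlap, the direction of Ddx58 and Gm14446. The list as a whole did not share that direction, since 1 of the 8 markers was higher in both experiments after scaling and 2 were lower. Siglech, which defines those cells, had 0.164 and 0 RPKM in the libraries labelled Irf8 cKO, against 0.0057 and 0 RPKM in Ctrl. The 13 macrophage and monocyte markers summed to 11.2 and 2.64 RPKM in the libraries labelled Irf8 cKO, against 19.0 and 5.02 RPKM in Ctrl, with 2 and 6 of them at 0 in either group. The 10 neutrophil markers found in the tables summed to 14.1 and 1.42 RPKM in the libraries labelled Irf8 cKO, against 73.0 and 7.66 RPKM in Ctrl, with 1 and 3 at 0 against 0 and 2. Both myeloid sums were highest in experiment 1, and both were higher in Ctrl. Higher in Ctrl is the direction of Samhd1 and Zbp1 and opposite to that of Ddx58 and Gm14446. By single genes after scaling, 7 of the 10 neutrophil markers were lower in both experiments (24.9% of all genes were) and 0 higher (23.6%). Of the 13 macrophage and monocyte markers 2 were lower in both and 3 higher, so that list had no common direction. The part of these 3 lists in the values of the members was not tested. The summed markers of plasma cells (45.1 and 27.0 RPKM in the libraries labelled Irf8 cKO, against 56.8 and 38.7 RPKM in Ctrl) overlapped between the groups. Conventional dendritic cell markers summed to 0.901 and 0.990 RPKM in the libraries labelled Irf8 cKO, against 1.37 and 1.79 RPKM in Ctrl, T cell markers to 5.24 and 2.34 RPKM in the libraries labelled Irf8 cKO, against 4.63 and 4.16 RPKM in Ctrl, and NK cell markers to under 0.1 RPKM in every library.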

How the data were processed

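The 4 libraries analysed hold RNA of sorted GC B cells, per the labels' protocols purified with RNeasy Mini, amplified by Ovation RNA-Seq System v2 from small amounts, and turned into Nextera XT libraries. Amplification can distort the ratios of scarce transcripts. For each experiment the authors deposited a table of RPKM by library and RefSeq gene. Per the file headers it also has their log2 ratio and their p-value, which is unadjusted and sets 1 library against 1. Per the series design text the tables come from the Wardrobe platform. Per the submitters' processing notes, Cufflinks 2.2, Cuffdiff, TopHat2, DESeq, mm10 and mm9 are named, without a role for each, and strand use is not stated. The authors' deposited log2 ratio was found to exceed that of their RPKM by 0.205 (experiment 1) or 0.721 (experiment 2), holding within 0.05 for 97.1% and 96.3% of genes at 1 RPKM or more. A median-of-ratios scaling within each experiment gives offsets of 0.206 and 0.719.

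Each table has 23471 entries, and entries sharing a symbol were summed (2 symbols). Lengths came from GENCODE M21 transcripts of GRCm38 for 97.6% of entries. Read totals were estimated from the spacing of low RPKM. Since 61.2% to 64.2% of low values came out whole within 0.05 reads, whole reads could not be recovered and count models were left out. Of the whole values 62.9% to 67.7% were even, so counting intervals (exact Clopper-Pearson, 95%) took 2 reads as 1 pair. They cover counting error only.

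RPKM were divided by median-of-ratios factors over the 4 libraries. The model was run with limma 3.58.1 under R 4.3.3 (lmFit, eBayes with a variance trend, 2-sided) on log2(scaled RPKM + 1), with experiment as a block, on genes at 1 RPKM or more in at least 2 libraries, with Benjamini-Hochberg adjustment over all 6446 genes and a threshold of 0.05. Such ratios understate the change of low genes. The block follows from the numbered experiments in the labels, with a table for each. Deviations of same-numbered libraries from their group means correlated at 0.336. Python 3.11.15 with pandas 2.3.3, numpy 2.4.6 and matplotlib 3.10.9 made the tables and figures.

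Promoter windows and sequences are from RefSeq on GRCm38.p6, and motifs were searched by exact letters. Members, lists and tests were chosen with earlier results of these data known. Full values were given for the 10 tested members, the 4 added ones, Irf8, Irf7, Irf9 and, of the other interferon-stimulated genes, the 3 highest and 3 lowest ratios, with up to 3 genes of each other list. Some genes that this rule names are not reported here. Ddx58, Dhx58, Igtp and further members were named as members of the list. Alternatives were values as deposited, scaling within each experiment, pseudocounts of 0.1 and 0.5, other filters, no block, no variance trend and each library left out, and, chosen after seeing the data, no filter with a pseudocount of 0.1 and scaling factors from the tested genes.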

Additional observations from a re-analysis of the deposited data

How the results depend on the processing

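The absence of called genes depends on the settings. Against 0 of 6446 genes in scaled values with the block, limma called 76 as deposited, 1 with scaling within each experiment, 3 with no replicate block, 4 with scaling factors from the tested genes and 16 with no filter and a pseudocount of 0.1, the last 2 settings being chosen after seeing the data. Leaving out 1 library, with no block, gave from 13 to 116 calls, the most without the library labelled Irf8 cKO 1, where the lone library of that label is assumed to vary like the Ctrl libraries. Of the members, 1 was called with no filter and a pseudocount of 0.1, and 0 to 1 when a library was left out, in each case Gm14446, which was chosen for its difference, so that these calls support nothing. Members with a ratio above the median of all genes in both experiments numbered 18 of 39 with no filter, with either pseudocount, against 6 of 10. With no filter that median was 0 in each experiment. The 18 are therefore the members already counted as higher in both experiments (23.6% of 15557 genes were), 4 of them by choice. That count needs both experiments and could not be formed with a library left out. The members' median log2 ratio of 0.07 became -0.25 as deposited, 0.094 with a pseudocount of 0.1, 0.31 with no filter and that pseudocount, and 0.11 with scaling factors from the tested genes. With a library left out it ran from -0.0075 (without the library labelled Irf8 cKO 2) to 0.17 (without the library labelled Irf8 cKO 1). For the other interferon-stimulated genes the median of -0.03 became -0.35 as deposited and ran from -0.14 to 0.032 with a library left out. The deposited values carry the shift of all genes; the cause of the other differences was not tested. Of 266 values of single named genes under the alternatives, 210 moved by less than the spread between experiments. That count overstates stability. Changing only the filter, the block or the variance trend cannot alter the log2 ratio of a gene here. Values under those settings were bound to stay the same and are among the 210. Depth limits Ddx60 and Parp12, with about 1 read pair in each Ctrl library, and 21 members with under 100 estimated reads in every library.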
